A study of Mus musculus with 11 samples.

Results

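Transcripts of the transcription factors that maintain naive pluripotency were compared across 6 mouse pluripotent stem cell cultures with expression bead arrays. The factors were the 9 genes Esrrb, Nr5a2, Nr0b1, Zfp42, Prdm14, Tfcp2l1, Tbx3, Gbx2 and Tfap2c, and every probe that the platform annotation assigned to them by symbol, synonym or Entrez number was taken. Of the 9 genes, 8 had a probe, among 16593 genes with a symbol on the array, and together they had 14 of its 25697 probes. A probe was tested if it was detected (detection p-value under 0.01) on at least 2 of the 11 arrays, as 13048 probes were. Of the 14 probes, 12 passed this filter, from 7 genes. Tfcp2l1 had no named probe, the Prdm14 probe was not detected on any array, and the third Nr5a2 probe was detected on 1 array, so these could not be tested.

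Epi-Sox2 were male epiblast stem cells of the GOF18 line that overexpressed wild-type Sox2 and grew in conditioned medium (CM), and EpiSC were male cells of the same line, for which no overexpression is labelled. EpiSC-GFP+ and EpiSC-GFP- were the positive and negative fractions of male E3 epiblast stem cells in CM, separated by cell sorting for an Oct4-GFP reporter. T9-EpiSC were male epiblast stem cells of the T9 line, grown on CF1 feeder fibroblasts in UM medium, kept for 2 days without Fgf2 and harvested without the feeders. ESC were male embryonic stem cells. The first 4 groups and ESC had 2 arrays each, labelled as biological replicates, and T9-EpiSC had 1. The vector and promoter that drove Sox2, whether Epi-Sox2 were 1 clone, the ESC line, and the medium of EpiSC and of ESC are not given in the sources used here. Each epiblast stem cell group came from 1 named line. The p-values rest on the spread between arrays of a group, pooled over the groups for each probe, and not on a spread between lines. A difference between E3, GOF18, T9 and ESC cannot be told apart from a difference between those lines or their media. Within GOF18, an effect of Sox2 cannot be told apart from one of vector, clone or medium. Below, a rise with Sox2 means a higher level in Epi-Sox2 than in EpiSC.

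Embryonic stem cells represent the naive state of the epiblast before implantation, and epiblast stem cells the primed state after it. In mouse embryonic stem cells the naive factors form a network around Oct4, Sox2 and Nanog that is fed by LIF through Stat3 and by Wnt through relief of the repressor Tcf7l1, and that Fgf/Erk signalling dissolves. Esrrb and Nr5a2 are orphan nuclear receptors that bind DNA, and Nr0b1 is a related receptor without the usual DNA-binding domain that acts as a co-repressor. Zfp42, also known as Rex1, is a zinc finger protein of the Yy1 family and a classical marker of the naive state. Prdm14 represses Fgf receptor and DNA methyltransferase genes, Tfcp2l1 belongs to the grainyhead-related CP2 family, Tbx3 is a T-box factor, Gbx2 a homeobox factor and Tfap2c an AP-2 factor that is also used by germ cells and trophoblast.

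Promoter windows of 250 bases before an annotated start were found for 6 of the 9 genes, 8 windows in all, in RefSeq sequence of build GRCm38.p6. Windows of 4 genes whose transcripts rose both with Sox2 and in the reporter-positive fraction are printed 5′ to 3′ on the gene's strand. They show which short motifs of pluripotency factors are present in genes that rose in both comparisons. Capitals mark matches to a motif. The motifs were searched on both strands. They were the octamer ATGCAAAT, the Sox site CATTGTT, the Sox/Tcf-like site CTTTGTT, the nuclear receptor motif AAGGTCA and the Klf site GGGTGTGG.
Zfp42, chr8:43307010-43307259, minus strand: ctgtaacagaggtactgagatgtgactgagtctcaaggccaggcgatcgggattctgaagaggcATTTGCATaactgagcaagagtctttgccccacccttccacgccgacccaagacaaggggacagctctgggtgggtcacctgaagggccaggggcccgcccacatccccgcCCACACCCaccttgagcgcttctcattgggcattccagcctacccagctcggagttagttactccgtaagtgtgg
Nr5a2, downstream start, chr1:136953631-136953880, minus strand: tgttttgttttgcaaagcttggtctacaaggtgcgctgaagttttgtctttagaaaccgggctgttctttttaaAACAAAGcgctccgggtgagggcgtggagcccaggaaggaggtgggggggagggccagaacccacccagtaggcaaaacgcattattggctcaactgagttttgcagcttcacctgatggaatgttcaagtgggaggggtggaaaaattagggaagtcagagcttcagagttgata
Esrrb, upstream start, chr12:86360867-86361116, plus strand: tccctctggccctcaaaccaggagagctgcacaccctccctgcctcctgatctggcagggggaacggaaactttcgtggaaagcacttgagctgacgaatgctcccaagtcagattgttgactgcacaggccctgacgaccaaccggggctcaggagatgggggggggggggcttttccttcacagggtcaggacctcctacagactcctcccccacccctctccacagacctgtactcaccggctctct
Gbx2, chr1:89931177-89931426, minus strand: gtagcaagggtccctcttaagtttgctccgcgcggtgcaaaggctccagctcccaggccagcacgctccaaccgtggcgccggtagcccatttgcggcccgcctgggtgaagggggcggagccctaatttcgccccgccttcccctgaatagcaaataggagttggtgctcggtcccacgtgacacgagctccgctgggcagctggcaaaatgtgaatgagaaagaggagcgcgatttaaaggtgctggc
The Zfp42 window held the octamer as ATTTGCAT at positions -186 to -179 from the start and the Klf site as CCACACCC at -75 to -68. The downstream Nr5a2 window held CTTTGTT as AACAAAG at -176 to -170. The upstream Nr5a2 window, not printed, held no match. The octamer occurred in 1.60% of 32851 mouse windows of this length, the Klf site in 3.2% and CTTTGTT in 5.03%. The printed Esrrb and Gbx2 windows held none of these letters, and neither CATTGTT (3.29% of all windows) nor AAGGTCA (4.08%) was found in any of the 8 windows. The Gbx2 window had 18 CpG dinucleotides and the Zfp42 window 9, against 6 in each of the printed Esrrb and Nr5a2 windows and a median of 6 over all windows. A match is a string of letters and no evidence of binding, and the arrays do not show which start was used.

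Mean probe intensity was lowest on EpiSC-GFP- replicate 2 (199.7) and highest on ESC replicate 1 (623), and each array detected 9250 to 11675 probes. Precision is limited by the number of arrays. Both arrays of a group correlated at r of 0.987 to 0.995 across the tested probes, which are not independent replicates. Levels are given as background-corrected, quantile-normalized log2 intensities, on which the lowest detected signal of an array read 4.77 to 5.38, and a level of 1 probe is not compared with that of another. Differences are on the log2 scale and carry their standard error (SE), with n = 2 arrays in each group. Adjusted p-values were computed by limma over all 13048 probes. A fold written "at least" is a bound against the lowest detected signal, used where both arrays of the dimmer group failed to detect the probe.

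The Sox2 transcript itself was checked first. On its brighter probe Sox2 read 8.38 and 8.48 in Epi-Sox2, against 7.61 and 7.38 in EpiSC, a difference of 0.94 ± 0.13 (adjusted p = 0.00176). The dimmer probe was detected on both Epi-Sox2 arrays (5.01 and 5.07) and on neither EpiSC array (4.40 and 4.54), and differed by 0.57 ± 0.14 (adjusted p = 0.0185). Both probes were thus higher in Epi-Sox2 than in EpiSC, as its label says. The brighter probe read higher still in groups with no labelled overexpression: EpiSC-GFP- (8.85 and 8.90), EpiSC-GFP+ (9.31 and 9.23), T9-EpiSC (8.58) and ESC (8.97 and 8.86). The dimmer probe read 9.85 on both ESC arrays. Between the fractions the brighter probe did not pass (0.39 ± 0.13, adjusted p = 0.0534). The dimmer probe did (0.50 ± 0.14, adjusted p = 0.0251), though it was not detected in either fraction. Pou5f1, which encodes Oct4, did not pass the test between the sorted fractions on either probe, with differences of -0.38 ± 0.13 (adjusted p = 0.0576) and 0.03 ± 0.14 (adjusted p = 0.922) for EpiSC-GFP+ against EpiSC-GFP-. The sort was on reporter fluorescence, which the arrays did not measure.

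With Sox2 overexpression, 8 of the 12 tested probes rose and 0 fell, where 8.96% of all tested probes rose and 8.28% fell. The risers came from 6 of the 7 genes: Esrrb, Gbx2, Zfp42, Tfap2c (all 3 probes), Nr5a2 and Tbx3 (1 probe each). The median difference of the 12 probes was 1.05, against -0.02 over all tested probes. Esrrb, Gbx2 and Zfp42 ranked at 7, 13 and 17 of all 13048 probes by the size of their rise. As RNA came from whole cultures or fractions, more transcript per cell cannot be told apart from more cells with the transcript, here and in all that follows.

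Among the nuclear receptors, Esrrb read 10.50 and 10.28 in Epi-Sox2, against 6.82 and 7.11 in EpiSC. Both Epi-Sox2 arrays lay well above both EpiSC arrays, and the difference was 3.43 ± 0.15, a 10.8-fold rise (adjusted p = 8.45e-07). Nr5a2 read 5.48 and 5.28 on its brightest probe in Epi-Sox2, against 4.37 and 4.44, not detected, in EpiSC. The groups did not overlap, and the rise was at least 1.42-fold (0.97 ± 0.18, adjusted p = 0.00607), but it missed the threshold without Epi-Sox2 replicate 1 (adjusted p = 0.0597). Nr0b1 was not detected on any of these 4 arrays.

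Zfp42 read 8.24 and 8.37 in Epi-Sox2, against 5.65 and 5.53 in EpiSC. This was a 6.57-fold rise with no overlap (2.71 ± 0.15, adjusted p = 5.43e-06). Gbx2, in mouse a direct target of the LIF and Stat3 pathway, read 8.50 and 8.48 in Epi-Sox2, against 5.69 and 5.16 in EpiSC. Its rise was 8.34-fold (3.06 ± 0.17, adjusted p = 5.43e-06), and the EpiSC arrays differed from each other more than the Epi-Sox2 arrays did.

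All 3 probes of Tfap2c rose. Its brightest probe read 9.21 and 9.39 in Epi-Sox2, against 7.50 and 7.42 in EpiSC, a 3.58-fold rise (1.84 ± 0.13, adjusted p = 3.16e-05). Its other probes rose by 1.57 ± 0.15 (adjusted p = 1.88e-04) and by 1.13 ± 0.23 (adjusted p = 0.00981). The groups did not overlap on any of the 3 probes, but the dimmest lost its call without Epi-Sox2 replicate 1, without Epi-Sox2 replicate 2 or without EpiSC replicate 2, with adjusted p-values up to 0.0635. Tbx3 read 5.33 and 5.07 in Epi-Sox2 on its brightest probe, against 4.36 and 4.30, not detected, in EpiSC. That is a small rise close to background, at least 1.25-fold (0.87 ± 0.13, adjusted p = 0.00269), and the second Tbx3 probe, detected on 1 of the 2 Epi-Sox2 arrays, did not pass (0.51 ± 0.24, adjusted p = 0.178) unless Epi-Sox2 replicate 2 was left out (adjusted p = 0.0149).

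**Figure D1:**
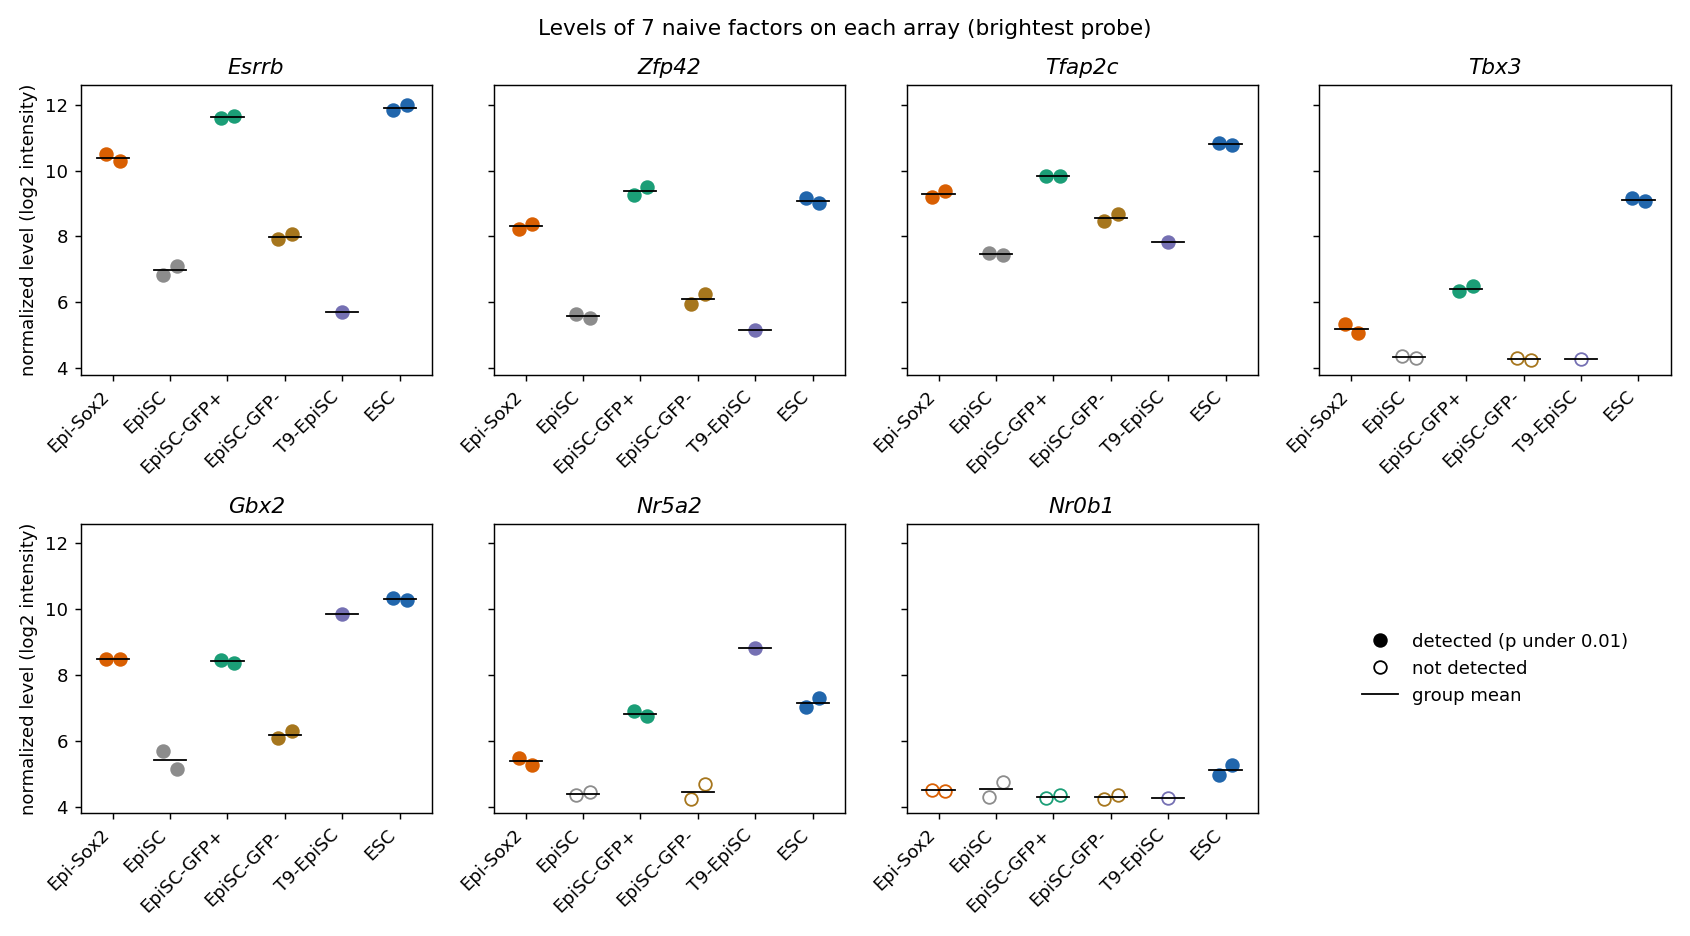
Normalized log2 level of the brightest probe of 7 naive factors (y axis) on each of the 11 arrays, by group (x axis). Filled points are detected, open points are not, and lines are group means. Esrrb and Zfp42 stand high in Epi-Sox2, EpiSC-GFP+ and ESC and low in T9-EpiSC (5.70 and 5.16), while Gbx2 and Nr5a2 stand high in T9-EpiSC (9.87 and 8.82).

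The comparison of the sorted E3 fractions asked which naive factors follow the Oct4 reporter within a culture. In EpiSC-GFP+ against EpiSC-GFP-, 8 of the 12 probes rose and 0 fell, where 12.2% of all tested probes rose and 12.2% fell. With median scaling in place of quantile normalization 87.7% of all calls in this comparison were higher, against 49.9%, and the median of all probes was 0.17. The risers again came from Esrrb, Zfp42, Nr5a2, Gbx2, Tbx3 and Tfap2c. The median difference of the 12 probes was 1.85, against -0.01 over all tested probes.

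Esrrb read 11.61 and 11.65 in EpiSC-GFP+, against 7.91 and 8.08 in EpiSC-GFP-. The fractions were far apart, a 12.4-fold difference (3.64 ± 0.15, adjusted p = 3.17e-07). Nr5a2 read 6.90 and 6.74 in EpiSC-GFP+ on its brightest probe, against 4.23 and 4.69, not detected, in EpiSC-GFP-. It was at least 2.83-fold higher in the positive fraction (2.36 ± 0.18, adjusted p = 2.13e-05), and on the second Nr5a2 probe the fractions overlapped (-0.27 ± 0.30, adjusted p = 0.553). Nr0b1 was not detected in either fraction.

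Zfp42 read 9.26 and 9.49 in EpiSC-GFP+, against 5.95 and 6.25 in EpiSC-GFP-. This 9.68-fold difference (3.27 ± 0.15, adjusted p = 7.38e-07) placed it at rank 22 of all probes, behind Esrrb at 15. Gbx2 read 8.46 and 8.38 in EpiSC-GFP+, against 6.10 and 6.29 in EpiSC-GFP-. It differed 4.69-fold (2.23 ± 0.17, adjusted p = 2.56e-05), with no overlap.

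Tbx3 was detected in EpiSC-GFP+, at 6.35 and 6.48 on its brightest probe and 6.56 and 6.51 on the second. In EpiSC-GFP- neither probe was detected, at 4.32 and 4.25 and at 4.67 and 4.48. The differences were at least 2.13-fold (2.13 ± 0.13, adjusted p = 6.23e-06) and at least 2.32-fold (1.97 ± 0.24, adjusted p = 6.31e-04), so the T-box factor separated the fractions on both. Tfap2c read 9.82 and 9.84 in EpiSC-GFP+ on its brightest probe, against 8.46 and 8.67 in EpiSC-GFP-. It rose on this probe (1.27 ± 0.13, adjusted p = 2.13e-04) and on the second (1.74 ± 0.15, adjusted p = 6.43e-05), while the dimmest, at 6.63 and 6.01 in EpiSC-GFP+ and 5.37 and 5.96 in EpiSC-GFP-, did not pass (0.65 ± 0.23, adjusted p = 0.0614). That probe passed without EpiSC-GFP+ replicate 2, without EpiSC-GFP- replicate 2 and under 4 other settings.

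The rise with Sox2 and the difference between the fractions share no arrays, so they could be set against each other with an interaction contrast. Of the 12 probes, 3 had a smaller and 1 a larger difference with Sox2 than between the fractions, where 6.58% and 6.87% of all tested probes did. The brightest Nr5a2 probe differed by -1.39 ± 0.25 (adjusted p = 0.00921), and the Tbx3 probes by -1.25 ± 0.19 (adjusted p = 0.00472) and -1.45 ± 0.34 (adjusted p = 0.0238). These 3 probes thus differed more between the E3 fractions than with Sox2 in GOF18 cells, although they were not detected in EpiSC or EpiSC-GFP-. Under cyclic loess none of the 3 passed, nor did Nr5a2 probe 1 and Tbx3 probe 2 on the authors' values. Nr5a2 probe 2 (0.36 ± 0.43, adjusted p = 0.616) and Tbx3 probe 3 (-0.12 ± 0.29, adjusted p = 0.821) did not pass. The second Tbx3 probe also missed the threshold without EpiSC replicate 1, EpiSC-GFP+ replicate 1 or 2 or EpiSC-GFP- replicate 2. Gbx2 had the larger difference with Sox2 (0.83 ± 0.24, adjusted p = 0.0488), but that call was lost in 15 of 23 alternatives, including when either array of Epi-Sox2, EpiSC-GFP+, EpiSC-GFP- or ESC, or EpiSC replicate 2, was left out. Esrrb (-0.21 ± 0.21, adjusted p = 0.552), Zfp42 (-0.56 ± 0.22, adjusted p = 0.112) and the brightest Tfap2c probe (0.57 ± 0.19, adjusted p = 0.072) did not pass. Zfp42 passed with an offset of 50, no background correction or median scaling (adjusted p down to 0.00262), Esrrb with no background correction (adjusted p = 0.0316) and this Tfap2c probe with an intensity trend (adjusted p = 0.023). With median scaling 13.7% of all calls of this contrast were higher, against 51.1%, and the median of all probes was -0.26, against -0.02.

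**Figure D2:**
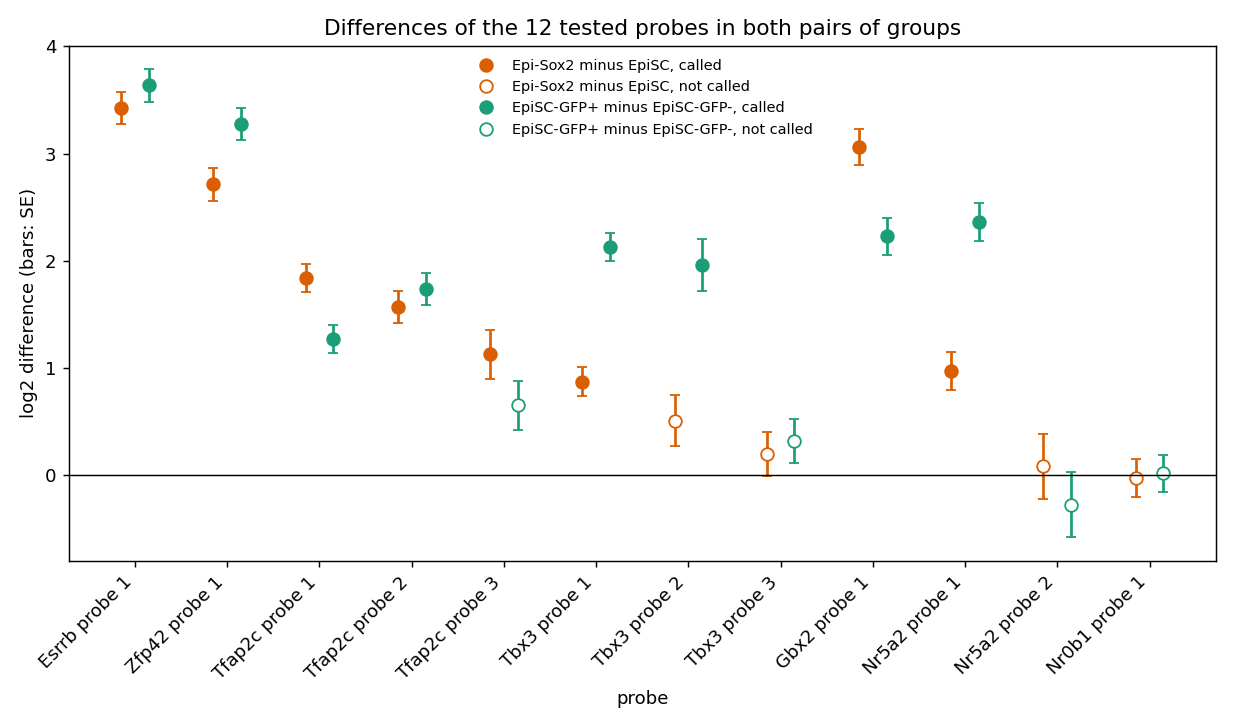
Log2 difference ± SE of the 12 tested probes (y axis) for Epi-Sox2 minus EpiSC and for EpiSC-GFP+ minus EpiSC-GFP-, with probes on the x axis. Filled points passed the test and open points did not. Esrrb, Zfp42 and Gbx2 lie above 2 in both comparisons, and Nr5a2 probe 1 and Tbx3 probes 1 and 2 lie higher between the fractions.

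Against ESC, EpiSC were lower on 11 of the 12 probes and higher on 0, where 27.9% of all tested probes were lower and 37.3% higher. With cyclic loess 46.4% of all calls were higher, against 57.2%, and the median of all probes was -0.04, against 0.15. Esrrb, at 11.83 and 12.00 in ESC, was 30.9-fold lower in EpiSC (-4.95 ± 0.15, adjusted p = 1.16e-08), Gbx2, at 10.33 and 10.29 in ESC, 29.6-fold lower (-4.89 ± 0.17, adjusted p = 2.10e-08) and Tbx3, at 9.15 and 9.07 in ESC, at least 18.8-fold lower (-4.78 ± 0.13, adjusted p = 6.59e-09). Zfp42 was 11.3-fold lower (-3.50 ± 0.15, adjusted p = 6.58e-08), Tfap2c 10.2-fold (-3.35 ± 0.13, adjusted p = 3.89e-08) and Nr5a2 at least 4.87-fold (-2.76 ± 0.18, adjusted p = 6.16e-07). Nr0b1, detected only in ESC, at 4.96 and 5.28, was at least 1.19-fold lower (-0.59 ± 0.18, adjusted p = 0.0132), and lost that call without EpiSC replicate 1 or with no background correction. Nr0b1 passed the detection filter only through ESC. Its place among the lower probes, in every count against ESC, therefore follows in part from the filter and is no support.

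Epi-Sox2 were also lower than ESC on 11 of the 12 probes and higher on 0 (27.3% and 36.6% of all tested probes), the exception being the third Tbx3 probe (-0.03 ± 0.20, adjusted p = 0.897). Nr0b1 lost its call without Epi-Sox2 replicate 2 or with no background correction. Zfp42 stood at 58.2% of the ESC mean on the normalized intensity scale, offset included (-0.78 ± 0.15, adjusted p = 0.00124), the highest share among the brightest probes of the 6 genes detected in Epi-Sox2. Tfap2c stood at 35.2% on its brightest probe, Esrrb at 34.9%, Nr5a2 at 29.1% and Gbx2 at 28.2%, with adjusted p-values from 4.96e-06 to 1.18e-05. Tbx3 had the lowest share, at 6.66% (-3.91 ± 0.13, adjusted p = 2.88e-08). These shares have unlike floors. In EpiSC, Nr5a2 and Tbx3 read 14.8% and 3.63% of ESC while not detected, and Esrrb, Gbx2, Zfp42 and Tfap2c read 3.24%, 3.38%, 8.86% and 9.84%.

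EpiSC-GFP+ came closer to ESC, with 7 of the 12 probes lower and 0 higher, where 28.6% of all tested probes were lower and 39.6% higher. Esrrb (-0.28 ± 0.15, adjusted p = 0.12), Zfp42 (0.29 ± 0.15, adjusted p = 0.114), Nr5a2 probe 1 (-0.34 ± 0.18, adjusted p = 0.113) and Tfap2c probe 2 (-0.15 ± 0.15, adjusted p = 0.384) did not pass. These differences were small against the rises described above, but the calls depended on the processing: with cyclic loess Esrrb, Nr5a2 probe 1 and Tfap2c probe 2 were lower than in ESC, Esrrb also without background correction and Nr5a2 also with median scaling, and Zfp42 was higher with an offset of 50 or no background correction. Tbx3 (-2.69 ± 0.13, adjusted p = 9.71e-08), Gbx2 (-1.89 ± 0.17, adjusted p = 5.19e-06) and Tfap2c probe 1 (-0.97 ± 0.13, adjusted p = 9.09e-05) were lower. The second Nr5a2 probe was lower too (adjusted p = 0.0319), but not without EpiSC-GFP+ replicate 2 or without either array of EpiSC or ESC.

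**Figure D3:**
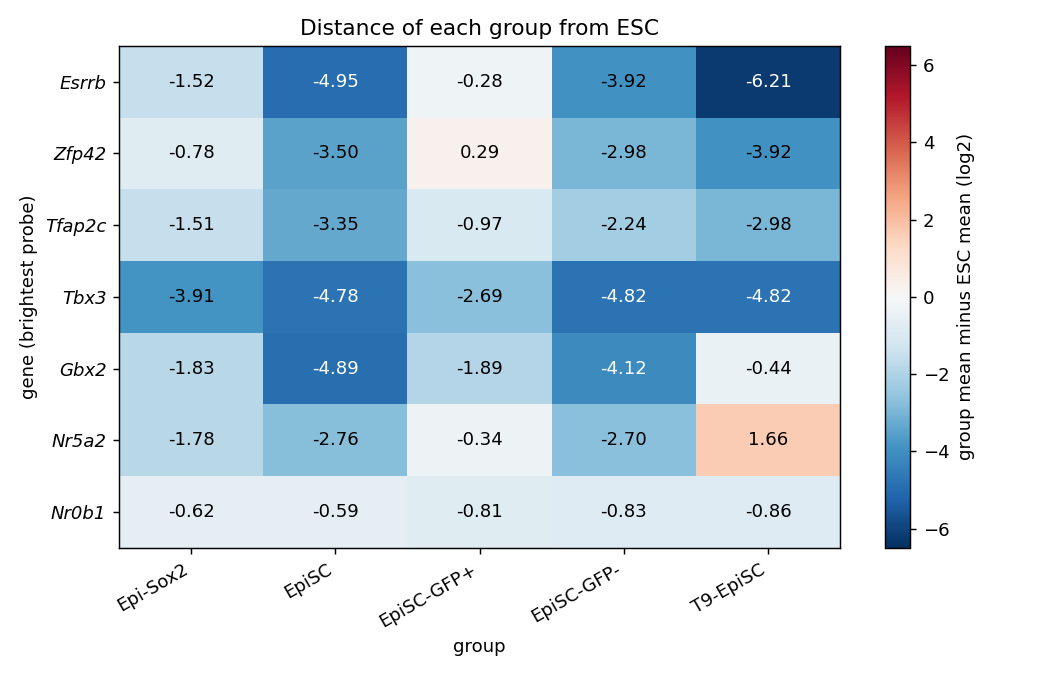
Group mean minus ESC mean (log2, colour and printed number) of the brightest probe of 7 naive factors (rows) in each other group (columns). EpiSC-GFP+ is within 0.34 of ESC for Esrrb, Zfp42 and Nr5a2, and T9-EpiSC is 1.66 above ESC for Nr5a2 and 6.21 below it for Esrrb, with 1 array.

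The order of the levels was much the same for Esrrb and the brightest Nr5a2 probe. ESC and EpiSC-GFP+, not separated by the test, stood first, then Epi-Sox2, then EpiSC-GFP- and EpiSC. On the second Nr5a2 probe EpiSC-GFP- (mean 5.09) stood above EpiSC-GFP+ (mean 4.81), and no neighbours in its order were separated. Epi-Sox2 were lower than EpiSC-GFP+ for Esrrb (-1.24 ± 0.15, adjusted p = 3.06e-04), Nr5a2 (-1.44 ± 0.18, adjusted p = 3.17e-04), Tbx3 (-1.21 ± 0.13, adjusted p = 1.98e-04), Zfp42 (-1.07 ± 0.15, adjusted p = 6.79e-04) and Tfap2c (-0.54 ± 0.13, adjusted p = 0.0101), where 18.7% of all tested probes were lower and 19.6% higher. Gbx2, at 8.49 on average in Epi-Sox2 and 8.42 in EpiSC-GFP+, did not pass (0.06 ± 0.17, adjusted p = 0.803), with ESC above both, nor did Nr0b1, Nr5a2 probe 2, Tbx3 probe 3 and Tfap2c probe 3 (adjusted p-values from 0.082 to 0.414). At the low end, EpiSC were below EpiSC-GFP- for Esrrb (-1.03 ± 0.15, adjusted p = 9.03e-04), Tfap2c (-1.10 ± 0.13, adjusted p = 3.49e-04), Gbx2 (-0.77 ± 0.17, adjusted p = 0.00706) and Zfp42 (-0.51 ± 0.15, adjusted p = 0.0266), where 16.2% of all tested probes were lower and 17.8% higher. The brightest probes of Tbx3 and Nr5a2 were not detected in either of these groups. These pairs join different lines.

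T9-EpiSC showed another combination, with high Gbx2 and Nr5a2 and low Esrrb and Zfp42. With 1 array there is no replicate check and no test. Gbx2 read 9.87 in T9-EpiSC, against 5.69 and 5.16 in EpiSC, 21.7-fold higher, 8.46 and 8.38 in EpiSC-GFP+, and 10.33 and 10.29 in ESC. Nr5a2 read 8.82 on its brightest probe in T9-EpiSC, the highest level of the 11 arrays. It was at least 15.4-fold higher than in EpiSC, at least 11.3-fold higher than in EpiSC-GFP-, 4.0-fold higher than in EpiSC-GFP+ and 3.17-fold higher than in ESC. The second Nr5a2 probe was also brightest there, at 6.04, against 5.75 and 5.54 in ESC.

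Esrrb read 5.70 and Zfp42 5.16 in T9-EpiSC, the lowest level of each on any array. Esrrb was 2.40-fold lower than in EpiSC and 74.1-fold lower than in ESC, and Zfp42 1.35-fold and 15.2-fold lower. Both were still detected. Tfap2c stood at 7.83 on its brightest probe, between EpiSC (7.50 and 7.42) and EpiSC-GFP- (8.46 and 8.67), and Tbx3 and Nr0b1 were not detected. By a limit of 1 log2 unit against EpiSC, 3 of the 12 probes (Gbx2 and Nr5a2 probes 1 and 2) were higher and 1 (Esrrb) lower, where 5.73% and 5.07% of all tested probes were. The size of the Nr5a2 difference moved with the background correction, between 2.54 with none and 6.67 on the authors' values.

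Probes of the same gene did not always give the same picture. The group means of the 3 Tfap2c probes ran in the same order, ESC, EpiSC-GFP+, Epi-Sox2, EpiSC-GFP- and EpiSC, but Epi-Sox2 and EpiSC-GFP- were not separated on probe 2 (adjusted p = 0.0602) or probe 3 (adjusted p = 0.749), and on probe 3 their arrays overlapped. EpiSC-GFP+ stood at 51.0%, 89.8% and 34.4% of the ESC intensity on probes 1 to 3. The first 2 Tbx3 probes were bright in ESC (9.15 and 9.07, and 8.31 and 8.36), while the third stayed between 4.53 and 5.24 on all arrays and did not pass in any of the comparisons above. Between the fractions it passed without EpiSC-GFP- replicate 2 (adjusted p = 0.0337). The 2 tested Nr5a2 probes shared a maximum in T9-EpiSC, but the second did not rise with Sox2 (0.09 ± 0.30, adjusted p = 0.883), where it was not detected. The third Nr5a2 probe read 4.37 to 5.0 and the Prdm14 probe 4.24 to 4.82 over the 11 arrays, ESC included, so Prdm14 was not above background on any array.

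**Figure D4:**
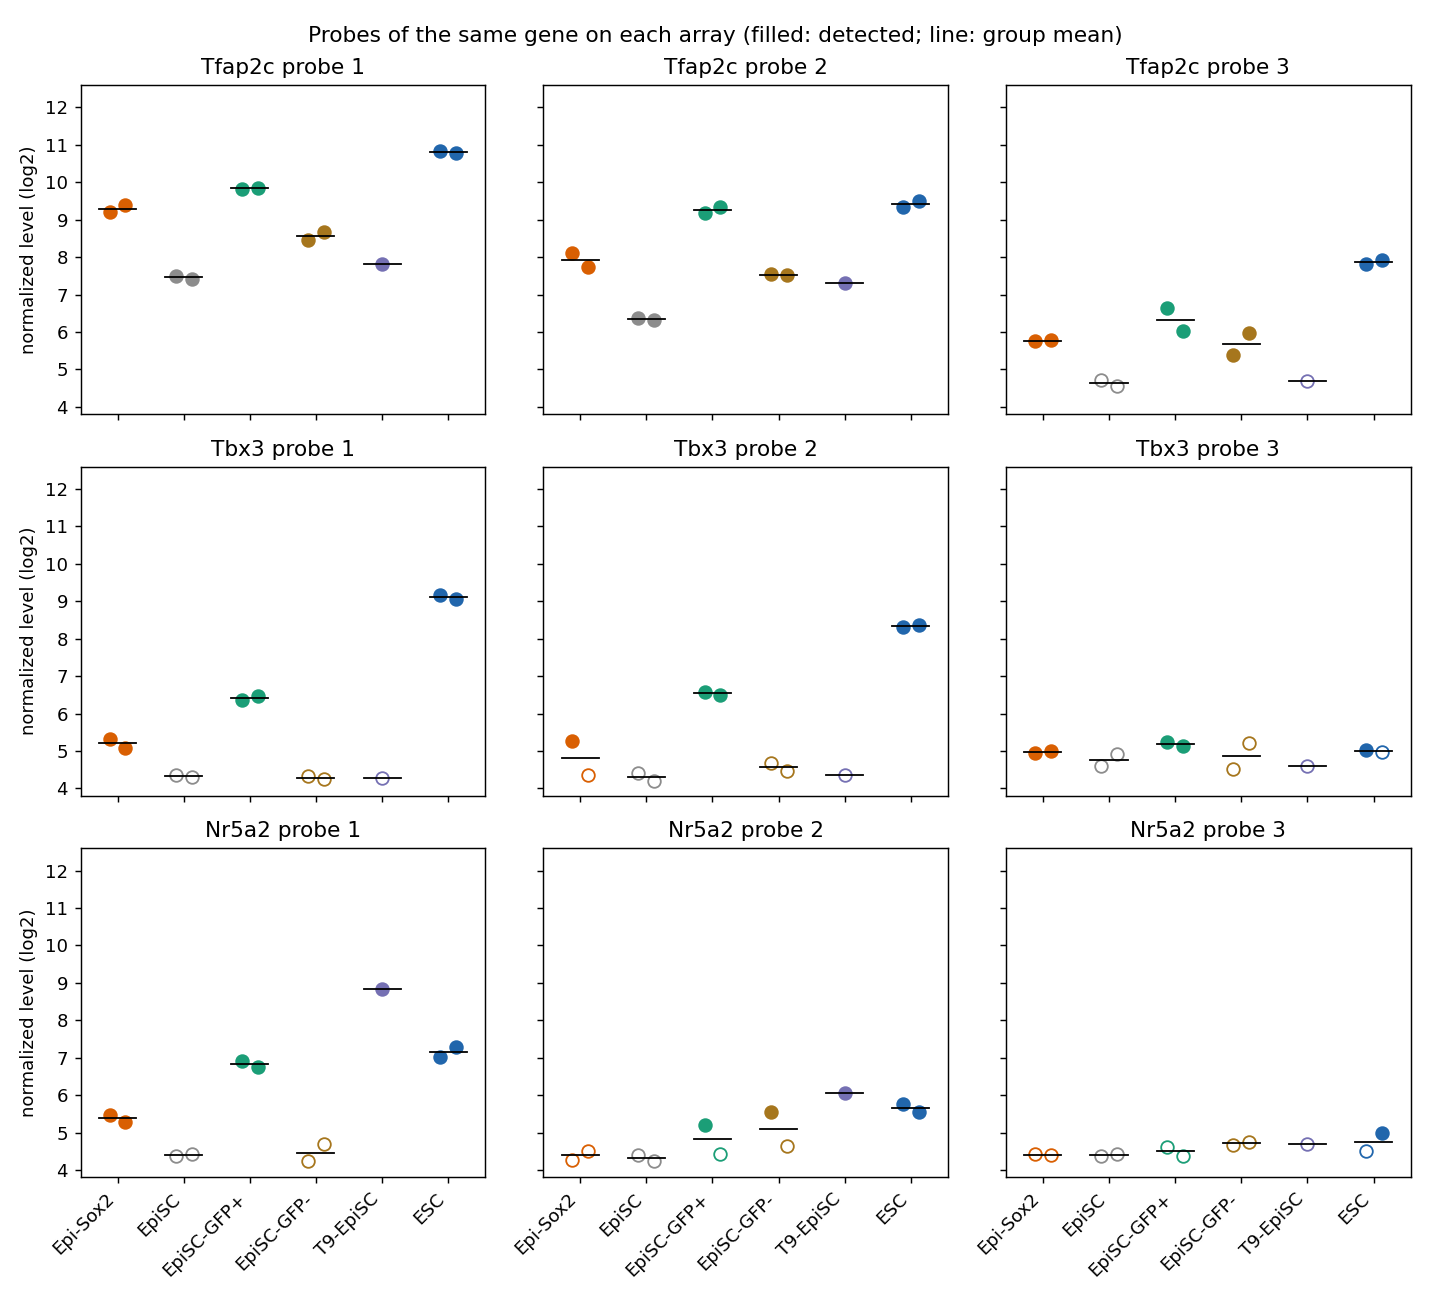
Normalized log2 level (y axis) of 3 probes each of Tfap2c, Tbx3 and Nr5a2 (rows) on each of the 11 arrays by group (x axis); filled points are detected and lines are group means. Tfap2c group means run in the same order on all 3 probes, with Epi-Sox2 and EpiSC-GFP- overlapping on probe 3, Tbx3 probe 3 stays between 4.53 and 5.24, and Nr5a2 probe 1 peaks in T9-EpiSC at 8.82.

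Other genes of the network, each by its brightest probe, were counted in lists. Of 11 tested naive partner factors, 6 rose and 0 fell with Sox2 and likewise between the fractions, where 8.96% and 12.2% of all tested probes rose, with medians of 0.70 and 0.78. One of the risers with Sox2 was the overexpressed gene itself. The largest rises with Sox2 were those of the Krüppel-like factors Klf2 (2.61 ± 0.16, adjusted p = 8.27e-06) and Klf5 (1.44 ± 0.13, adjusted p = 1.27e-04), followed by Sox2 itself. Between the fractions they were those of Klf4 (at least 7.40-fold), Klf2 (2.63 ± 0.16) and the Akt cofactor Tcl1 (at least 2.46-fold). Of these 11, 9 were lower and 1 higher in EpiSC than in ESC, where 27.9% of all tested probes were lower and 37.3% higher.

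Of 15 tested genes of the LIF, Fgf/Erk and Wnt inputs, 3 rose and 0 fell with Sox2 (8.96% of all tested probes rose), and 4 rose and 0 fell between the fractions (12.2% rose). Fgf4, the autocrine Fgf of pluripotent cells and a target of Oct4 and Sox2, rose by 1.84 ± 0.14 with Sox2 and 0.88 ± 0.14 between the fractions. The Erk phosphatase Dusp6 (1.01 ± 0.12 and 0.63 ± 0.12) and the ETS factor Etv5 (0.72 ± 0.14 and 0.93 ± 0.14), both targets of Erk signalling, rose as well. In T9-EpiSC, 2 days without Fgf2, Dusp6 read 11.2 and Etv5 7.90, against means of 10.3 and 7.78 in EpiSC. The other tested Erk targets of the list, the inhibitor Spry4 and the ETS factor Etv4, read lower in T9-EpiSC, at 5.04 and 7.06, against means of 6.70 and 9.28 in EpiSC, and Fgf4 was not detected.

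Of 6 tested protein partners of the factors, 2 rose and 0 fell in each comparison, beside the same shares of all tested probes. They were the polycomb subunits Ezh2 (0.77 ± 0.22, adjusted p = 0.0373) and Suz12 (0.40 ± 0.12, adjusted p = 0.0413) with Sox2, and the polycomb subunit Eed (0.85 ± 0.16, adjusted p = 0.00472) and Cbfa2t2, a partner of Prdm14 (0.57 ± 0.14, adjusted p = 0.0155), between the fractions. Of 5 tested genes that Prdm14 represses in mouse embryonic stem cells, only the methyltransferase cofactor Dnmt3l passed, and it rose by 3.33 ± 0.13 with Sox2 and 3.84 ± 0.13 between the fractions. Uhrf1 (0.31 and 0.33) and Fgfr2 (0.23 and 0.18) did not pass. Of 8 tested relatives of the factors, 2 rose and 1 fell with Sox2 (8.96% and 8.28% of all tested probes), and 3 rose and 0 fell between the fractions (12.2% each). Grhl2, a grainyhead factor of epithelia, rose in both (0.83 ± 0.19 and 0.82 ± 0.19), Grhl1 and Grhl3 rose between the fractions (0.94 ± 0.23 and 0.75 ± 0.15), and Eomes, a T-box factor of trophoblast and primitive streak, was at least 1.5-fold lower in Epi-Sox2. The list medians lay between 0.18 and 0.78, beside -0.02 and -0.01 over all tested probes.

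Markers of cell states were read on the same arrays. Of 9 tested naive markers 7 rose with Sox2 and 8 between the fractions, with 0 falls, where 8.96% and 12.2% of all tested probes rose. They were led by Dppa5a (4.33 ± 0.13) with Sox2 and by the oocyte gene Ooep (5.24 ± 0.12) between the fractions. Klf2, Klf4, Nanog and Fgf4 were also counted in the lists above, and Dppa3 is counted again below as a germ cell marker. The counts of these lists are therefore not separate. Of 9 primed markers 4 and 3 fell, with 0 rises, where 8.28% and 12.2% of all tested probes fell, and 5 and 6 did not pass. Among those that fell were the growth factors Fgf5 (-2.49 ± 0.17 and -2.20 ± 0.17) and Fgf8 (-3.44 ± 0.23 and -1.77 ± 0.23). All 9 naive markers were lower and all 9 primed markers higher in EpiSC than in ESC (27.9% and 37.3% of all tested probes), so both kinds of culture carried the markers of their label. Epi-Sox2 still had 7 of 9 primed markers higher than ESC and 8 of 9 naive markers lower (36.6% and 27.3% of all tested probes). In EpiSC-GFP+ 7 of 9 primed markers were still higher than in ESC and 7 of 9 naive markers lower (39.6% and 28.6%). In T9-EpiSC 7 of the naive markers were detected, with a summed intensity of 2690, against 1173 to 1336 in EpiSC and 45453 to 46702 in ESC, and 9 of 9 primed markers.

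Markers of other cell types moved with some of these results. Of all tested probes 8.96% rose and 8.28% fell with Sox2, and 12.2% rose and 12.2% fell between the fractions. Of 13 fibroblast markers, 4 to 5 were detected in Epi-Sox2 (summed intensity 1596 to 1776), against 2 to 3 in EpiSC (580 to 594), and 1 of 8 tested, Acta2, rose (2.47 ± 0.14, adjusted p = 5.43e-06). In T9-EpiSC, which had grown on feeders, 6 were detected (2352), against 8 in ESC (2339 to 2461). Acta2 alone made up most of the sums in T9-EpiSC, where it read 10.8, in Epi-Sox2 (mean 10.3) and in ESC (mean 10.6). Its mean in EpiSC was 7.85. Dcn (6.40), Col1a1 (5.55) and Twist1 (5.33) were detected in T9-EpiSC and on no EpiSC array, and Fbln2 read 7.13 in T9-EpiSC, against a mean of 5.13 in EpiSC. Thy1 read lower in T9-EpiSC, at 5.98, against a mean of 6.73 in EpiSC, and Col3a1, Lox and S100a4 were not detected in T9-EpiSC. Col1a2, Fbln5, Pdgfrb and Postn were undetected on all 11 arrays. Of 9 trophoblast markers, a cell type that also uses Tfap2c, 3 to 4 were detected in Epi-Sox2 (summed intensity 1443 to 1458), against 4 to 5 in EpiSC (868 to 914), where Krt8 and Gata3 rose and Eomes fell, and Elf5 and Hand1 were detected on no array. Between the fractions 0 of 7 trophoblast markers passed. Of the germ cell markers, Dppa3 and Dnd1 rose with Sox2 and Dppa3 and Dazl between the fractions. Of 7 tested markers of primitive endoderm, 2 rose and 1 fell with Sox2 and 1 rose between the fractions, and Gata4 was undetected on all arrays. In T9-EpiSC 5 trophoblast markers were detected (summed intensity 1995, against 868 to 914 in EpiSC), with Krt8 at 10.6 and Cdx2 at 5.62. Krt8 alone made up most of the sums in T9-EpiSC, in Epi-Sox2 (mean 10.1) and in EpiSC (mean 9.11). Cdx2 was detected on no EpiSC array. Tead4 went the other way, not detected in T9-EpiSC (4.61) and detected on both EpiSC arrays (mean 5.11). Of 8 primitive endoderm markers 6 were detected in T9-EpiSC (703), against 5 in EpiSC (603 to 737). Pdgfra (5.43) was detected in T9-EpiSC and on no EpiSC array. Sox17 (5.85) was detected on both EpiSC arrays as well (mean 5.12). Col4a1 read lower in T9-EpiSC, at 8.38, against a mean of 8.58 in EpiSC, and Sox7 was detected in neither. The part of such cells in the levels of the naive factors was not tested.

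The genes most like each factor were sought among 7961 probes that named a single gene and varied by at least 1 log2 unit, by Pearson's r over the 6 group means. These values are a description, as all probes share the same arrays. Esrrb was most like Dppa4 (r = 0.999), a chromatin protein of pluripotent cells, which averaged 10.8 in Epi-Sox2 and 7.12 in EpiSC, followed by Tead4 and Ccdc3. Zfp42 was most like the phospholipase gene Pla2g1b (r = 0.991), then Dppa4 and Tmem38b. Tfap2c was most like the laminin gene Lama1 (r = 0.999), then Agfg1 and Dnmt3l, and Tbx3 like Tcl1 (r = 0.998), Mybl2 and Hsd17b14. Nr5a2 was most like Ube2g1 (r = 0.984), Tctex1d2 and Lsm14b, Gbx2 like Ccno (r = 0.975), Tmpo and Ezh2, and Nr0b1 like Mmd2 (r = 0.999), Smndc1 and Riok1, a value that rests on ESC, where alone Nr0b1 was detected. Among the factors themselves Esrrb and Zfp42 were closest (r = 0.988), Nr5a2 and Gbx2 had r = 0.870, and Esrrb and Nr5a2 had r = 0.002, with T9-EpiSC the group in which they parted.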

How the data were processed

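RNA of 11 cultures (300 ng each, 12 h of in vitro transcription, per the labels) was hybridized to mouse bead arrays, 1 array per sample. The deposited scanner table holds the bead intensity of each probe, not normalized per the labels' design text, and a detection p-value, which the authors' software attached to it (the submitters' processing notes name BeadStudio 3.2). The deposited series matrix holds the authors' log2 values (lumi and RMA are named in the processing notes, with no order), with every column at a median of 2.64 and ranked exactly as the intensities (rank correlation 1). How its background was removed is not given in the sources used here, and it served as an alternative.

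Intensities were corrected with limma's normexp model using detection p-values (offset 16), quantile-normalized and taken to log2 (limma 3.58.1, R 4.3.3). Probes were named by the platform annotation, with symbols updated through Entrez numbers (23962 probes matched); 23978 probes had 1 gene symbol, 0 several and 1719 none. A linear model with 1 mean per group was fitted over all 11 arrays, with 5 residual and 4.87 prior degrees of freedom, and p-values were adjusted by Benjamini-Hochberg over 13048 probes at 0.05. The probe was the unit. A bound sets the brighter group's mean against the higher of the lowest detected signal and the probe's own signal on each array of the dim group. The model was tested on simulated data.

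Named genes are all probes of the 9 factors, Sox2 and Pou5f1, up to 3 genes per list by largest difference, and the 3 genes most like each factor. The members and lists were chosen with earlier results of these data known. Alternatives changed the background (offset 50, or none), the normalization (median scaling, cyclic loess), the values (those of the authors), the filter (none, or both arrays of a group), the unit (1 probe per gene), the arrays fitted (those compared, each array left out), the variance (intensity trend, replicate block) and the threshold (1 log2 unit). No slide is named in the files, so no slide block was fitted. Probe sequences were not used here.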

Additional observations from a re-analysis of the deposited data

Results flagged for a closer look

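For 4 probes the difference of Epi-Sox2 against EpiSC and the difference of EpiSC-GFP+ against EpiSC-GFP- were unlike each other by an interaction contrast (limma, adjusted over all 13048 probes). Tbx3 probe 1 differed less with Sox2, by -1.25 ± 0.19 (SE, adjusted p = 0.00472), with differences of 0.87 and 2.13. Nr5a2 probe 1 also differed less, by -1.39 ± 0.25 (adjusted p = 0.00921), with differences of 0.97 and 2.36. Tbx3 probe 2 differed less by -1.45 ± 0.34 (adjusted p = 0.0238), with differences of 0.51 and 1.97. Gbx2 probe 1 differed more, by 0.83 ± 0.24 (adjusted p = 0.0488), with differences of 3.06 and 2.23. The Tbx3 and Nr5a2 probes were not detected in EpiSC or in EpiSC-GFP-, so both of their differences start from background.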

How the results depend on the processing

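Over the 23 alternatives and left-out arrays of each tested comparison, 1614 values of the factors were recomputed. Of these, 1547 were counted as unchanged, 47 lost a call, 20 gained one and 0 reversed while called. A value without a call was counted as unchanged also where its sign changed. Nr0b1 in Epi-Sox2 against EpiSC, for example, ran from -0.26 to 0.22. In Epi-Sox2 against EpiSC 2250 probes were called, against 1453 on the authors' values, 1373 with only the arrays compared, 374 past 1 log2 unit and 734 to 2302 with an array left out, the lowest being 734 and 1001 without Epi-Sox2 replicate 1 or 2. For EpiSC-GFP+ against EpiSC-GFP- these counts were 3187, against 2123 with only the arrays compared, 674 past 1 log2 unit and 1639 to 3794 with an array left out, the lowest being 1639 and 1742 without EpiSC-GFP+ replicate 1 or 2 and 1969 without EpiSC-GFP- replicate 2. Past 1 log2 unit, 4212 of 8505 calls were left in EpiSC against ESC, 4112 of 8347 in Epi-Sox2 against ESC and 4809 of 8906 in EpiSC-GFP+ against ESC. With 1 probe per gene, by construction with fewer probes, 7 of the factors were lower than ESC in EpiSC, 7 in Epi-Sox2 and 4 in EpiSC-GFP+, and in EpiSC-GFP+ 4 probes were lower past 1 log2 unit and 1, Zfp42, was higher with an offset of 50 or no background correction. The interaction called 1755 probes, against 2638 with no background correction, 935 on the authors' values, 1163 with only the arrays compared, 893 past 1 log2 unit and 730 to 2494 with an array left out (730 and 742 without Epi-Sox2 replicate 1 or 2, 861 and 999 without EpiSC-GFP+ replicate 1 or 2, 1161 without EpiSC-GFP- replicate 2). Its factor probes with a larger Sox2 difference numbered 1, against 2 with an intensity trend, 0 with median scaling, the authors' values, no filter, only the arrays compared, past 1 log2 unit and the replicate block, and 0 to 1 with an array left out. Those with a smaller one numbered 3, against 5 with no background correction, 0 with cyclic loess and 1 on the authors' values. T9-EpiSC differed from EpiSC by over 1 log2 unit on 1409 probes, against 731 with an offset of 50, 477 with no background correction and 3110 on the authors' values, and Esrrb, the 1 factor probe that was lower, was within that limit (0 probes) with an offset of 50, no background correction or cyclic loess. The cause was not tested in any of these. Samples with the same replicate number did not deviate together (r from -0.017 to 0.080 between groups). With 2 arrays per group this cannot exclude a pairing, such as fractions sorted from the same culture. With the replicate block 2082 and 3041 probes were called in the first 2 comparisons, and of the factors' calls only that of Gbx2 in the interaction changed (adjusted p = 0.0574). Precision is limited by 2 arrays per group, and fold sizes of probes close to background by the background correction.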
